A study of Mus musculus with 12 samples.

Results

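Foxp3, the lineage factor of regulatory T cells (Treg cells), and the 5 genes of the Ikaros zinc finger family (Ikzf1 to Ikzf5) were followed through bulk RNA sequencing of Treg cells from mouse tumors and lymph nodes. The 6 genes were taken by name from a deposited table of 55413 genes, and all 6 passed the filter on low counts that left 15705 genes for testing. Hosts lacked T cells (TCRbd-/- mice, which keep their B cells, NK cells and myeloid cells) and received sorted cells of Foxp3YFP-cre donors, in which the Foxp3 locus drives a yellow fluorescent protein joined to Cre. The mix was thymic Treg cells (tTreg) from spleen and lymph nodes of CD45.1 donors, Foxp3- conventional CD4 T cells of CD45.2 donors and CD8 T cells, in a ratio of 1 to 10 to 8. Tumors were started 3 days later with the mouse hepatoma line Hepa1-6, and their Treg cells were collected on day 18. The groups were tumor pTreg (3 libraries; the name is used for Treg cells that arise outside the thymus), tumor tTreg (5 libraries), and total lymph node Treg cells of untreated mice without tumors (LN Treg, 4 libraries). All 3 groups carry the genotype label Foxp3YFP-cre and TCRbd-/-. The sources used here give neither the age of the mice nor whether a library was 1 animal or a pool, and p-values therefore cover differences among libraries that could be technical.

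Foxp3 is a forkhead transcription factor that holds Treg identity and represses effector cytokine genes. Ikaros proteins bind DNA through amino-terminal zinc fingers, pair with one another through carboxy-terminal fingers, and recruit chromatin complexes that mostly silence genes. Helios (Ikzf2) is widely used as a mark of thymic Treg cells and stabilises them, Eos (Ikzf4) acts as a co-repressor with Foxp3, Ikaros (Ikzf1) is made in nearly all leukocytes, Aiolos (Ikzf3) in lymphocytes, and Pegasus (Ikzf5) is the most divergent and broadly made member.

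The start sites of Foxp3 and Ikzf5 are shown because these genes had the largest and the smallest change of the 6 in tumor pTreg against LN Treg with TMM scaling. RefSeq windows (GRCm38.p6) matched 3 of the 6 members, Foxp3 and Ikzf1 with 2 start sites each and Ikzf5 with 1. They were searched on both strands for TGGGAA (the Ikaros core), TGTTTAC (forkhead), TGTGGT (RUNX) and TTCNNNGAA (STAT), which do not overlap one another in these windows. Capitals mark matches, and each printed window runs 280 bases in the direction of the gene, with 30 of them after the start site.
Foxp3, first start site, chrX:7579426-7579705, plus strand: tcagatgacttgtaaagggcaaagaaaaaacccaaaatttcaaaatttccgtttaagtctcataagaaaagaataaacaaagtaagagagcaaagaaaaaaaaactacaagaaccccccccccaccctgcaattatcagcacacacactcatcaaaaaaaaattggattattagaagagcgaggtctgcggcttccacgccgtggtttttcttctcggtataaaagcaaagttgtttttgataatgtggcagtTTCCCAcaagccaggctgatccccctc
Foxp3, second start site, chrX:7580233-7580512, plus strand: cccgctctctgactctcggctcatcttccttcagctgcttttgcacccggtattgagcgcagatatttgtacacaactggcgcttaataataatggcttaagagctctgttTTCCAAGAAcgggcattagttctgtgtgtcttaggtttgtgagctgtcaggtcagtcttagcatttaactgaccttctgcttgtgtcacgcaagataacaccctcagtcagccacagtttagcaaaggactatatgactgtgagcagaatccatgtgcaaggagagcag
Ikzf5, chr7:131410449-131410728, minus strand: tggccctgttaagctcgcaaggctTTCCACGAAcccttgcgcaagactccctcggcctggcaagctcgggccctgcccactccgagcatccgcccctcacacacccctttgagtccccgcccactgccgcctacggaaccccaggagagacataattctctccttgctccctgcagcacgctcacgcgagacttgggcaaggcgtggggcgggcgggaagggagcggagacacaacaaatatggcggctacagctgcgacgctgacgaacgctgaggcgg
In the first Foxp3 window the Ikaros core, read on the minus strand, begins at position 4, counted from 1 at the start site. The STAT match in the second Foxp3 window starts at position -139, that of Ikzf5 at position -226, and the second Ikzf1 window holds one at position 19. Among 32851 mouse windows of 300 bases 25.6% held the Ikaros core, 3.65% the forkhead letters, 16.8% the RUNX letters and 8.30% the STAT letters. The first Ikzf1 window held no match, and none of the 5 windows held the forkhead or RUNX letters. The GC content was 40.7 and 47.7% in the Foxp3 windows, 81.3 and 49.0% in the Ikzf1 windows and 65.7% in the Ikzf5 window, against a median of 52.7%.

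Depth was similar in the tumor groups and lowest in 1 LN Treg library. Tumor pTreg libraries held 17964262 to 18180959 counts, tumor tTreg libraries 18107272 to 18510923 and LN Treg libraries 14573864 to 17323894. A list of 11 T cell genes (CD3 chains and signalling genes such as Lck, here pan-T) summed to 1027 to 1049 CPM (counts as a share of the library total) in tumor pTreg, 96.2 to 101.0 in tumor tTreg and 4503 to 4593 in LN Treg, and rested on 1757 to 1855 counts per library in tumor tTreg. All 14 macrophage and monocyte markers had counts in every group, with sums of 10582 to 10649, 10326 to 10893 and 111 to 116 CPM in tumor pTreg, tumor tTreg and LN Treg. Of 10 hepatoma or hepatocyte markers 9 had counts in both tumor groups (Serpina1a was at 0), with sums of 5341 to 5714 and 7886 to 8229 CPM, and 8 in LN Treg (Apoa2 and Hnf4a at 0), at 7.44 to 9.53 CPM. The 10 B cell markers, all with counts in every group, averaged 42.9, 38.7 and 19.7 CPM in sum, most of it Cd22 in the tumor groups. Most single B cell markers went the other way: of 7 tested, 1 was called higher and 5 lower in each tumor group than in LN Treg. Their median log2 fold change with TMM scaling was -3.23 for tumor pTreg and -2.51 for tumor tTreg. The 10 markers of CD8 T, NK and innate lymphoid cells summed to 214 to 221, 147 to 186 and 30.7 to 33.5 CPM, with Tyrobp leading in the tumor groups and Ncr1 at 0 in tumor pTreg. Of 9 of these markers tested against LN Treg with TMM scaling, 7 were called higher and 1 lower in tumor pTreg (median log2 fold change 2.89). In tumor tTreg, despite the higher sum, 2 were called higher and 5 lower (median -0.79). Treg markers, of which Foxp3 and Ikzf2 are members here, had counts in every group, and the other 7 of them summed to 346 to 356 CPM in tumor pTreg, 121 to 133 in tumor tTreg and 2339 to 2391 in LN Treg. In bulk RNA fewer cells of a type and less RNA per cell cannot be told apart.

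Foxp3 (X chromosome, 7573644 to 7595245, plus strand, GRCm38) was low in both tumor groups. Its level per transcript length, in FPKM (fragments corrected for gene length and depth), was 12.60, 12.92 and 13.15 in the 3 libraries of tumor pTreg, 5.41, 5.10, 6.23, 5.63 and 6.38 in the 5 of tumor tTreg, and 282.82, 291.68, 276.32 and 284.34 in the 4 of LN Treg. The 3 groups did not overlap, and LN Treg stood far above both tumor groups. Behind these values were 359 to 378 counts in tumor pTreg, 147 to 169 in tumor tTreg and 6637 to 7627 in LN Treg. With TMM scaling, which adjusts library totals so that the typical gene does not differ, Foxp3 was 2.34-fold higher in tumor pTreg than in tumor tTreg (log2 fold change 1.23, standard error 0.0612, adjusted p = 3.87e-16, edgeR quasi-likelihood test with Benjamini-Hochberg adjustment over all genes), but set against T cell transcripts it was lower (-2.17, given with the T cell scaling further on). Against LN Treg the log2 fold change was -4.33 for tumor pTreg and -5.56 for tumor tTreg, and the second of these turned to 0.20 with scaling to CD3 counts.

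With TMM scaling all 6 members were called higher in tumor pTreg than in tumor tTreg, and all 6 lower in each tumor group than in LN Treg, although most of these directions flip with T cell scaling. Among all genes tested 52.1% were called between the tumor groups (26.8% higher and 25.3% lower), 87.5% for tumor pTreg over LN Treg (47.6% higher and 39.8% lower) and 90.3% for tumor tTreg over LN Treg (48.1% higher and 42.3% lower). Groups of CPM values that did not overlap were found for 24.4% of genes higher and 24.0% lower between the tumor groups, 43.6% higher and 42.3% lower for tumor pTreg over LN Treg, and 43.2% higher and 42.0% lower for tumor tTreg over LN Treg. All 6 members were also without overlap in CPM, in the same directions. The median log2 fold change of the members was 1.29, -3.17 and -5.08 in these comparisons, against -0.01, 0.12 and 0.10 over all genes tested. The comparisons share groups, so their counts are not independent. The pan-T genes moved the same way, with medians of 3.56, -2.08 and -5.58, and their part in the changes of the members was not tested.

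**Figure D1:**
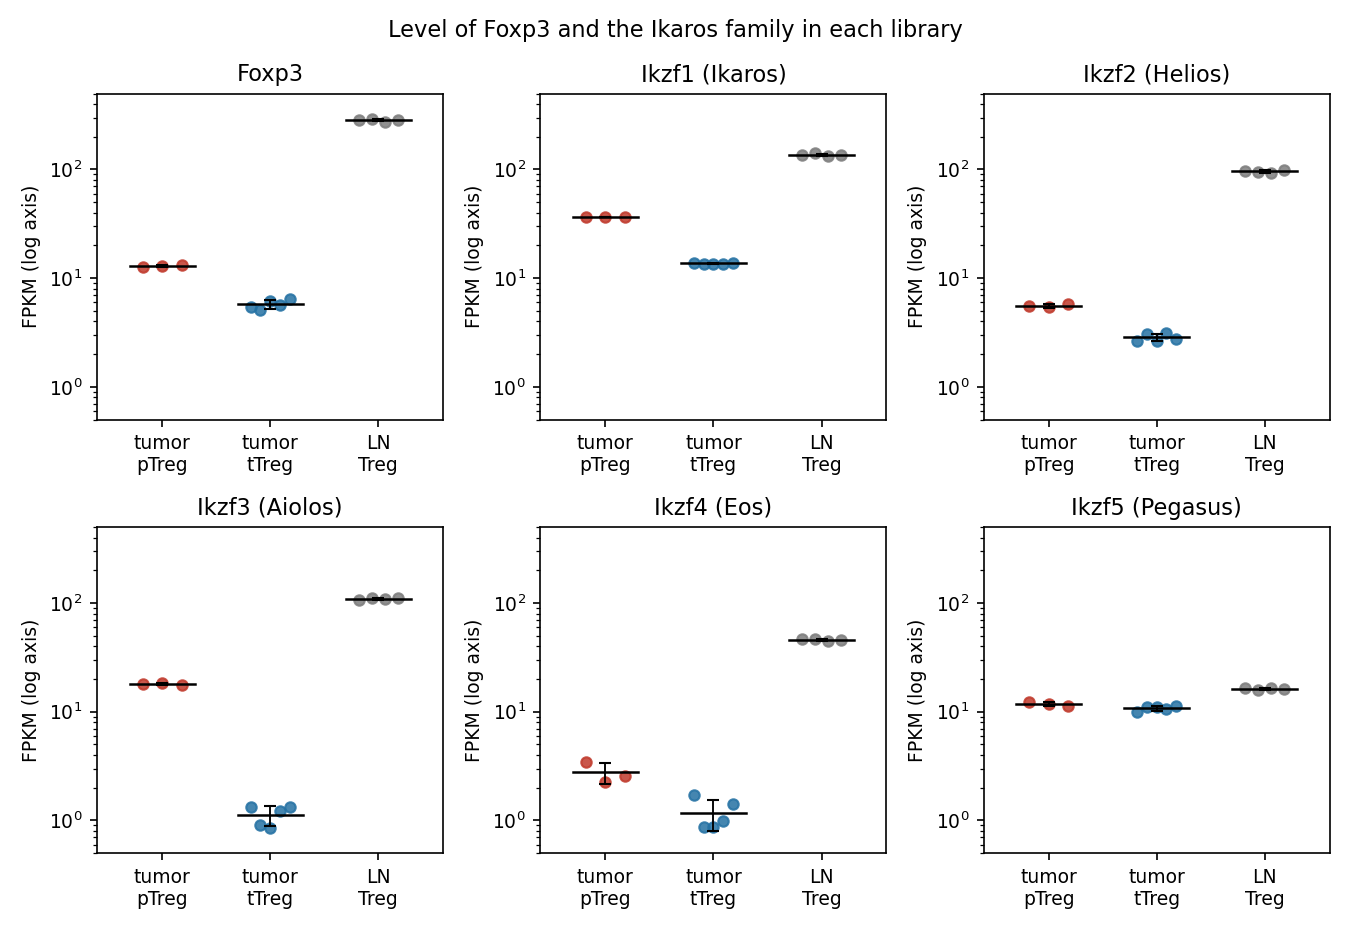
FPKM (log axis) of each member in every library; points are libraries, lines are group means and error bars are 1 SD (n = 3, 5 and 4). Ikzf5 spans 9.92 to 16.42 FPKM over all libraries, whereas Ikzf3 spans 0.85 to 111.46 and Foxp3 spans 5.10 to 291.68.

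Helios and Eos, the members tied most closely to Treg cells, ran near Foxp3 in all 3 comparisons. Ikzf2 (chromosome 1, 69531214 to 69687245, minus strand) had 5.51, 5.39 and 5.82 FPKM in the 3 libraries of tumor pTreg, 2.67, 3.09, 2.67, 3.11 and 2.74 in the 5 of tumor tTreg, and 97.78, 94.79, 93.63 and 99.74 in the 4 of LN Treg. With TMM scaling tumor pTreg lay above tumor tTreg without overlap: the log2 fold change was 1.05 ± 0.0472 (standard error; adjusted p = 3.49e-17, edgeR) and turned to -2.35 with pan-T scaling. Against LN Treg Ikzf2 was 16.02-fold lower in tumor pTreg and 33.1-fold lower in tumor tTreg, and the second of these flipped to 0.37 on the log2 scale with pan-T scaling. Ikzf4 (chromosome 10, 128630843 to 128645991, minus strand) had 3.45, 2.28 and 2.59 FPKM in the 3 libraries of tumor pTreg, 1.70, 0.87, 0.87, 0.99 and 1.42 in the 5 of tumor tTreg, and 46.22, 46.48, 44.67 and 45.22 in the 4 of LN Treg. It was the least abundant member in tumor pTreg and, beside Ikzf3, in tumor tTreg. Its log2 fold change of tumor pTreg over tumor tTreg was 1.36 (standard error 0.0898, adjusted p = 2.29e-13, edgeR) and turned to -2.03 with pan-T scaling. Over LN Treg it was -3.75 in tumor pTreg and -5.12 in tumor tTreg, the second of which turned to 0.30 with pan-T scaling.

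The FPKM of Ikzf4 in tumors varied more than its counts. Within tumor tTreg the coefficient of variation was 31.9% in FPKM and 5.77% in CPM, and within tumor pTreg it was 21.9 and 11.8%. Dividing CPM by FPKM gives the transcript length behind the deposited estimate, and for Ikzf4 this ran from 2.74 to 4.79 kb in tumor pTreg and from 2.64 to 4.84 kb in tumor tTreg, against 3.40 to 3.48 kb in LN Treg. With 172 to 217 and 70 to 82 counts in the tumor libraries, the estimated transcript length of Ikzf4 thus differed from library to library, and its ratios are also given from CPM.

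Aiolos separated the tumor groups most with TMM scaling, and least of the 6 members with T cell scaling. Ikzf3 (chromosome 11, 98464902 to 98546031, minus strand) had 17.81, 18.23 and 17.59 FPKM in the 3 libraries of tumor pTreg, 1.34, 0.90, 0.85, 1.21 and 1.32 in the 5 of tumor tTreg, and 106.71, 111.46, 107.82 and 111.37 in the 4 of LN Treg. The 5 tumor tTreg libraries held 45 to 64 Ikzf3 counts each, against 798 to 875 in the tumor pTreg libraries, with no overlap. The difference was 15.4-fold (log2 fold change 3.94, standard error 0.0700, adjusted p = 6.02e-27, edgeR), beside a median of 11.8-fold for the pan-T genes. Against LN Treg the log2 fold change of Ikzf3 was -2.59 in tumor pTreg and -6.53 in tumor tTreg. The direction of all 3 differences held with scaling to pan-T and to CD3 counts, but between the tumor groups the log2 fold change shrank to 0.55 and 0.39.

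Ikaros and Pegasus, which many other cells also make, had the smallest differences from LN Treg with TMM scaling. Ikzf1 (chromosome 11, 11685003 to 11772926, plus strand) had 36.18, 36.90 and 36.66 FPKM in the 3 libraries of tumor pTreg, 13.91, 13.56, 13.40, 13.58 and 13.85 in the 5 of tumor tTreg, and 136.92, 140.80, 133.86 and 136.58 in the 4 of LN Treg. It was 2.71-fold higher in tumor pTreg than in tumor tTreg with TMM scaling (log2 fold change 1.44, standard error 0.0308, adjusted p = 5.16e-25, edgeR), against -1.96 with pan-T scaling. Its log2 fold change over LN Treg was -1.75 for tumor pTreg and -3.19 for tumor tTreg, and both turned positive with pan-T scaling (0.27 and 2.23). Ptprc, which encodes the leukocyte antigen CD45, had log2 fold changes of 0.74, -1.76 and -2.50 in the same order. The Ikzf1 change between the tumor groups lay between that of Ptprc and that of the pan-T genes.

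Ikzf5 (chromosome 7, 131388652 to 131410521, minus strand) had 12.35, 11.87 and 11.20 FPKM in the 3 libraries of tumor pTreg, 9.92, 11.10, 11.04, 10.64 and 11.35 in the 5 of tumor tTreg, and 16.36, 15.78, 16.42 and 16.23 in the 4 of LN Treg. The tumor groups overlapped in FPKM, although not in CPM (41.2 to 44.1 in tumor pTreg and 35.2 to 40.9 in tumor tTreg). The log2 fold change of 0.16 (adjusted p = 0.00539, edgeR) lost the call with DESeq2 (adjusted p = 0.0768) and with limma on log2(FPKM + 1) (adjusted p = 0.0717). Over LN Treg the log2 fold change of Ikzf5 was -0.39 in tumor pTreg and -0.55 in tumor tTreg. With pan-T scaling these became -3.24 between the tumor groups, and 1.62 and 4.87 over LN Treg.

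Annotated genes overlap some of the members. The Foxp3 locus shares 1437 bases at its far end with Ccdc22 on the other strand, the sources used here do not say whether counting used strand, and an annotated noncoding transcript (Gm36995) spans all of Foxp3 on the other strand. Ccdc22 averaged 21.6 ± 1.45 CPM in tumor pTreg (SD, n = 3), 24.5 ± 1.58 CPM in tumor tTreg (n = 5) and 31.2 ± 0.705 CPM in LN Treg (n = 4), while Foxp3 averaged 20.3 ± 0.583, 8.74 ± 0.478 and 441 ± 11.1 CPM. Flicr, a noncoding RNA whose annotation overlaps Foxp3, averaged 0.554 ± 0.243, 0.361 ± 0.0818 and 13.5 ± 0.798 CPM. Ppp1r3f, a coding gene on the other strand that shares the first 640 bases of the Foxp3 locus, averaged 1.03 ± 0.299, 1.06 ± 0.393 and 18.1 ± 1.07 CPM, and so was also highest in LN Treg. Ikzf5 lies inside the annotated span of Fgfr2 on its own strand and shares 5831 bases with Pstk on the other strand, which averaged 11.9 ± 1.59, 11.7 ± 0.798 and 25.8 ± 1.32 CPM in tumor pTreg, tumor tTreg and LN Treg. How far such overlaps moved reads between genes was not tested.

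The order of the members changed from group to group on the FPKM scale. In tumor pTreg the means ran from Ikzf1 (36.6 ± 0.367) through Ikzf3 (17.9 ± 0.325), Foxp3 (12.9 ± 0.276), Ikzf5 (11.8 ± 0.578) and Ikzf2 (5.57 ± 0.222) to Ikzf4 (2.77 ± 0.606; SD, n = 3). In tumor tTreg Ikzf1 (13.7 ± 0.214) was followed by Ikzf5 (10.8 ± 0.559), Foxp3 (5.75 ± 0.543), Ikzf2 (2.86 ± 0.225), Ikzf4 (1.17 ± 0.373) and Ikzf3 (1.12 ± 0.233; SD, n = 5). The ranges of Ikzf4 and Ikzf3 overlapped in tumor tTreg, so their order is not settled, while no other members next to each other in the order overlapped in any group. In LN Treg the first was Foxp3 (284 ± 6.31), ahead of Ikzf1 (137 ± 2.86), Ikzf3 (109 ± 2.44), Ikzf2 (96.5 ± 2.79), Ikzf4 (45.6 ± 0.848) and Ikzf5 (16.2 ± 0.289; SD, n = 4).

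As shares of the summed Ikaros family FPKM, which do not depend on library scaling, the members rearranged. Ikzf1 made up 49.0 ± 0.860% in tumor pTreg, 46.1 ± 0.720% in tumor tTreg and 33.9 ± 0.420% in LN Treg. Ikzf3 held 24.0 ± 0.401% in tumor pTreg, 3.79 ± 0.737% in tumor tTreg and 27.0 ± 0.402% in LN Treg. Ikzf5, whose FPKM varied least over the libraries, although it varied most per pan-T count, held 15.8 ± 0.622% in tumor pTreg but 36.5 ± 1.83% in tumor tTreg, and it had the lowest share in LN Treg. Helios held 7.47 ± 0.357% in tumor pTreg and 9.65 ± 0.789% in tumor tTreg, against 23.8 ± 0.558% in LN Treg, and Eos 3.71 ± 0.785% and 3.94 ± 1.22%, against 11.3 ± 0.167%. The family sum was 74.6 ± 0.722 FPKM in tumor pTreg, 29.6 ± 0.666 in tumor tTreg and 405 ± 6.07 in LN Treg.

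**Figure D2:**
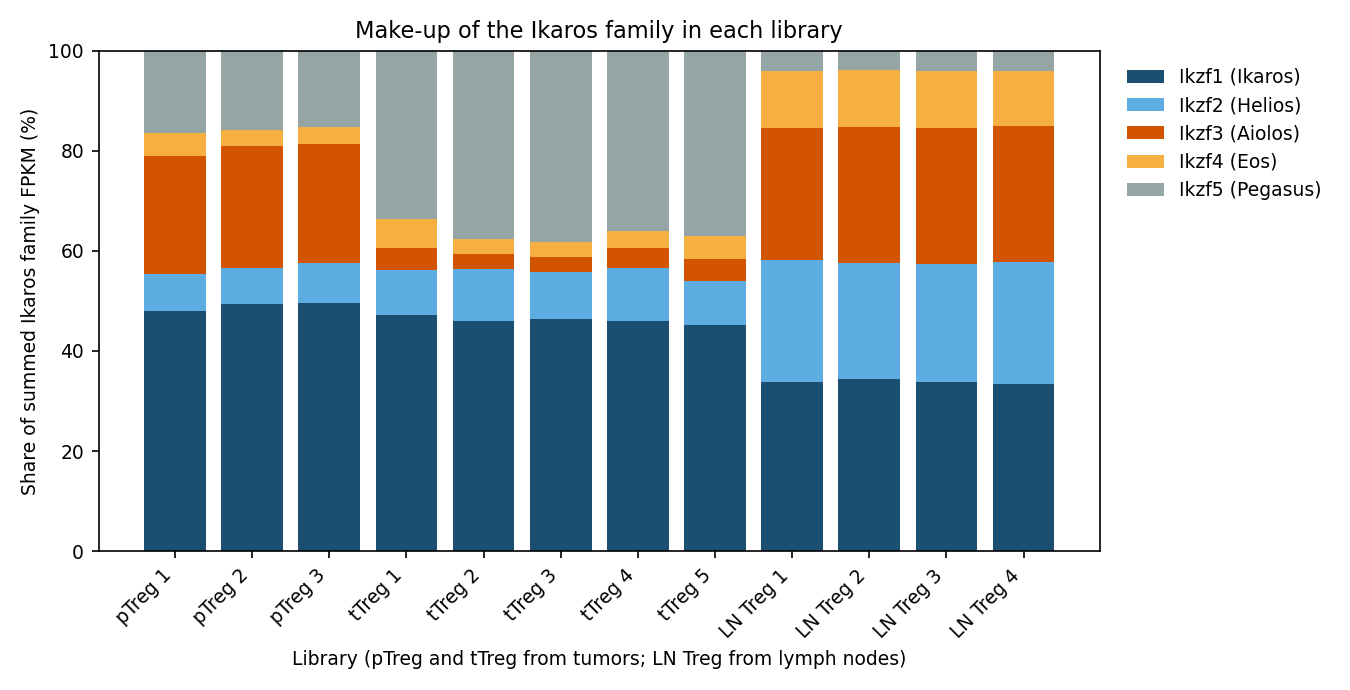
Share (%) of each Ikaros family member in the summed FPKM of Ikzf1 to Ikzf5, 1 bar per library. Ikzf3 holds 24.0% in tumor pTreg, 3.79% in tumor tTreg and 27.0% in LN Treg, and Ikzf5 has its largest share (36.5%) in tumor tTreg.

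Ratios within a library show how much of each family member was measured for each unit of Foxp3. The FPKM ratio of Ikzf2 to Foxp3 was 0.432 ± 0.0134 in tumor pTreg (SD, n = 3), 0.502 ± 0.0775 in tumor tTreg (n = 5) and 0.340 ± 0.0112 in LN Treg (n = 4). Tumor pTreg and tumor tTreg overlapped (log2 difference -0.20, two-sided exact permutation p = 0.25). Taken from CPM, the same ratio was 2.30 to 2.37 in tumor pTreg and 2.42 to 2.97 in tumor tTreg, without overlap (log2 difference -0.18, exact permutation p = 0.0357, the smallest this design allows). Helios per Foxp3 lay above LN Treg in every tumor library, with a log2 difference of 0.35 in tumor pTreg (exact permutation p = 0.0571, the smallest 3 against 4 libraries allow) and of 0.55 in tumor tTreg (exact permutation p = 0.0159, the smallest 5 against 4 allow).

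The ratios of 5 genes were compared in 3 pairs of groups, and after adjustment over these 15 none passed 0.05, with the lowest adjusted p at 0.0595 (exact permutation). The smallest p a pair of groups allows is 0.0159 to 0.0571 (exact permutation). Over 15 ratios no ratio of tumor pTreg, against either other group, could pass, because the smallest p of these pairs is too high. A ratio of tumor tTreg over LN Treg could pass only if all 5 of that pair had the smallest p. The lack of a call thus says little about any single gene. The ratio of Ikzf3 to Foxp3 was 1.39 ± 0.0431 in tumor pTreg, 0.196 ± 0.0421 in tumor tTreg and 0.385 ± 0.00680 in LN Treg. It was 7.20 times the tumor tTreg value in tumor pTreg (exact permutation p = 0.0357, adjusted p = 0.0714) and 3.60 times the LN Treg value (exact permutation p = 0.0571, adjusted p = 0.0714), and all 5 tumor tTreg libraries lay below LN Treg. Ikzf1 per Foxp3 was 2.84 ± 0.0445, 2.39 ± 0.230 and 0.483 ± 0.00187 in tumor pTreg, tumor tTreg and LN Treg, and Ikzf5 per Foxp3 was 0.917 ± 0.0642, 1.89 ± 0.167 and 0.0571 ± 0.00223. These groups did not overlap for either gene. Eos per Foxp3 was 0.216 ± 0.0513, 0.205 ± 0.0681 and 0.161 ± 0.00207, with overlap between the tumor groups (exact permutation p = 0.714) and between tumor tTreg and LN Treg (exact permutation p = 0.302). From CPM the Eos ratio of tumor tTreg lay above LN Treg in all 5 libraries (0.414 to 0.524 in tumor tTreg and 0.349 to 0.366 in LN Treg). Other cells also make Ikzf1 and Ikzf5, and the part of the macrophage and hepatoma RNA described above in these ratios was not tested.

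**Figure D3:**
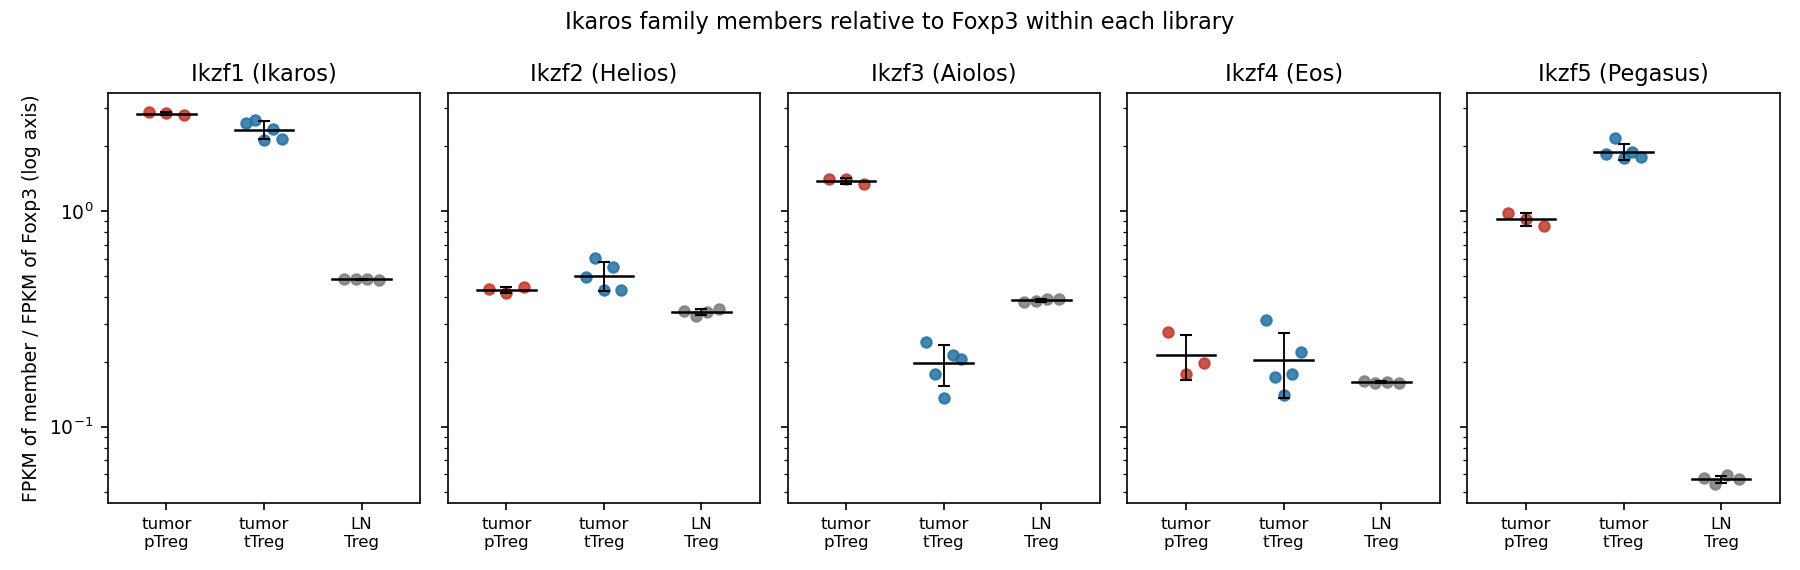
FPKM of each Ikaros family member divided by the FPKM of Foxp3 in the same library (log axis); points are libraries, lines are means and error bars are 1 SD. Ikzf2 and Ikzf4 stay within a narrow band (means 0.161 to 0.502), Ikzf3 is highest in tumor pTreg (1.39) and Ikzf5 in tumor tTreg (1.89).

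Because T cell transcripts were such different shares of the libraries, the members were also set against the pan-T counts. Foxp3 made up 1.95 ± 0.0379 counts per 100 pan-T counts in tumor pTreg, 8.81 ± 0.393 in tumor tTreg and 9.73 ± 0.301 in LN Treg. On this scale tumor pTreg lay below both other groups in every library, and tumor tTreg (8.22 to 9.24) lay just below LN Treg (9.43 to 10.1). The fitted log2 fold change of tumor tTreg over LN Treg was -0.14 (adjusted p = 0.0115, edgeR), but turned to 0.20 when only the 4 CD3 genes set the scale, so its direction is not settled. Helios read 4.55 ± 0.156 per 100 pan-T counts in tumor pTreg, 23.2 ± 1.19 in tumor tTreg and 18.0 ± 0.667 in LN Treg, and Eos 1.04 ± 0.112, 4.25 ± 0.311 and 3.46 ± 0.123. Both were lowest in tumor pTreg, as Foxp3 was.

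Aiolos differed from the other members on that scale as well. It read 4.44 ± 0.218 per 100 pan-T counts in tumor pTreg, 3.04 ± 0.419 in tumor tTreg and 6.62 ± 0.218 in LN Treg. It was the one member higher in tumor pTreg than in tumor tTreg by this scaling (log2 fold change 0.55, adjusted p = 1.30e-06, edgeR; 0.39 with CD3 genes), while the other 5 were lower, beside 0.509% of all genes called higher and 97.2% called lower. Ikzf1 read 14.8 ± 0.0525, 57.7 ± 2.65 and 12.3 ± 0.259 per 100 pan-T counts, and Ikzf5 4.07 ± 0.121, 38.5 ± 2.43 and 1.32 ± 0.0312. The scaling moved the median of all genes by -3.40 between the tumor groups, by 2.02 for tumor pTreg over LN Treg and by 5.41 for tumor tTreg over LN Treg. Relative to these shifts Foxp3, at -2.17, -2.32 and -0.14, was above the median gene in the first comparison and below it in the others. For genes that macrophages or tumor cells make, a value per pan-T count is no T cell level.

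**Figure D4:**
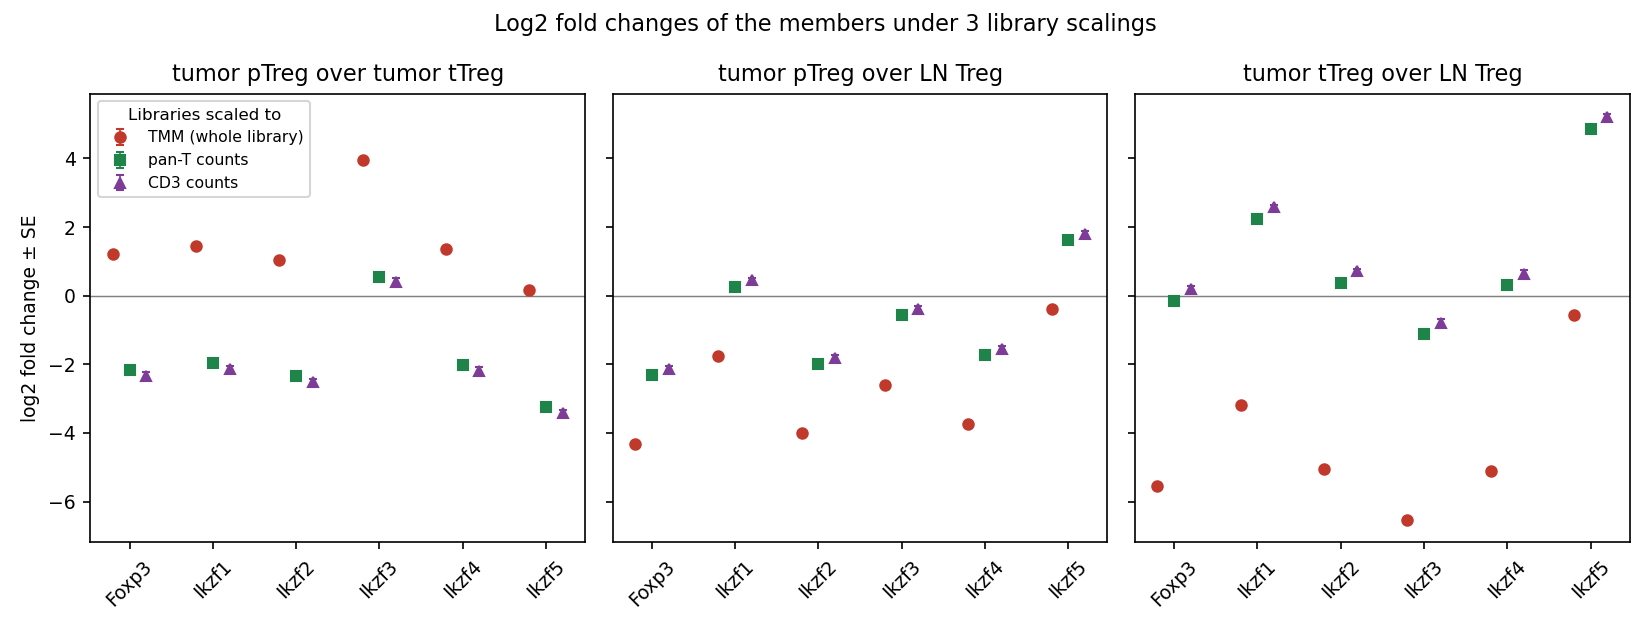
Log2 fold change ± standard error (edgeR) of each member with libraries scaled by TMM, by pan-T counts and by CD3 counts. Between the tumor groups Ikzf3 is above 0 under each scaling, while the other 5 members are above 0 with TMM and below it with both T cell scalings (Foxp3 at 1.23 and -2.17).

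Genes that work with Foxp3 and the Ikaros proteins were read from lists written for this comparison. With TMM scaling 26 of 36 partners and regulators of Foxp3 were higher in tumor pTreg than in tumor tTreg and 7 were lower (median log2 fold change 0.29), while with pan-T scaling none was higher and 35 were lower, as were 97.2% of all genes tested. Satb1, a chromatin organiser needed early in Treg development, averaged 52.1 ± 2.14 CPM in tumor pTreg, against 4.64 ± 0.243 CPM in tumor tTreg (log2 fold change 3.50 with TMM scaling and 0.10 with pan-T scaling, adjusted p = 0.185, edgeR). Gata3, a T cell factor that sustains Foxp3, averaged 22.4 ± 0.843 CPM in tumor pTreg, against 2.99 ± 0.580 CPM in tumor tTreg (2.91, and -0.48 with pan-T scaling). Foxo1 (1.58), which activates Foxp3, and Nfatc2 (1.29), which binds with it, also became lower with pan-T scaling (-1.82 and -2.11). Against LN Treg 12 were higher and 23 lower in each tumor group, with medians of -0.43 in tumor pTreg and -0.68 in tumor tTreg, which pan-T scaling turned to 29 higher and 7 lower in tumor pTreg and 34 higher and 1 lower in tumor tTreg. The same scaling called 90.4% of all genes tested higher and 4.79% lower in tumor pTreg, and 96.7% higher and 1.10% lower in tumor tTreg. Counts of the lists with that scaling, here and further on, are to be read against these shares. Those of marker and gene lists with TMM scaling, earlier and further on, stand beside the TMM shares of all genes tested. These were 26.8% higher and 25.3% lower between the tumor groups. Over LN Treg they were 47.6 and 39.8% for tumor pTreg, and 48.1 and 42.3% for tumor tTreg. Satb1, at 574 ± 9.99 CPM in LN Treg, had log2 fold changes over it of -3.36 for tumor pTreg and -6.85 for tumor tTreg, and stayed lower in both with pan-T scaling (-1.34 and -1.44). Tcf7, a factor of naive T cells, had -3.33 for tumor pTreg and -3.70 for tumor tTreg, and Bach2, which restrains effector programs, had -3.85 and -4.16. Both stayed lower with pan-T scaling in tumor pTreg (-1.31 and -1.84) and turned higher in tumor tTreg (1.72 and 1.26).

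Of 18 chromatin partners of Ikaros, from the NuRD, CtBP, Sin3 and BRG1 complexes, 10 were higher in tumor pTreg than in tumor tTreg and 3 lower with TMM scaling (median log2 fold change 0.11; all 18 lower with pan-T scaling), with Mbd2 at 0.39, Mta2 at 0.36, Sin3a at 0.35 and Gatad2a at 0.32. Against LN Treg 3 were higher and 13 lower in tumor pTreg (median -0.35), and 4 and 13 in tumor tTreg (median -0.40), while with pan-T scaling 17 and 18 were higher and none lower. Chd3, a NuRD remodeller, averaged 295 ± 5.79 CPM in tumor pTreg, 269 ± 8.30 in tumor tTreg and 1253 ± 10.0 in LN Treg. Chd4, its close relative, averaged 566 ± 6.52, 569 ± 20.4 and 583 ± 18.7 CPM in the same order. The log2 fold changes over LN Treg were -1.98 in tumor pTreg and -2.12 in tumor tTreg for Chd3 (0.04 and 3.29 with pan-T scaling). For Chd4 they were 0.06 and 0.06 with TMM scaling, opposite in sign to the CPM means, and 2.08 and 5.48 with pan-T scaling. Ctbp2, a corepressor gene, averaged 10.1 ± 1.23 CPM in tumor pTreg, 10.6 ± 0.921 in tumor tTreg and 0.316 ± 0.0761 in LN Treg, and its log2 fold change over LN Treg was 5.07 for tumor pTreg and 5.12 for tumor tTreg (7.03 and 10.5 with pan-T scaling).

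Of 16 genes that Foxp3 is known to induce 14 were higher in tumor pTreg than in tumor tTreg and 1 lower with TMM scaling (median log2 fold change 1.36), whereas all 16 were lower with pan-T scaling. The smallest p-values were those of Icos (3.08 with TMM scaling and -0.32 with pan-T scaling), Ctla4 (2.31 and -1.09), Il2ra (1.84 and -1.56) and Tnfrsf9 (1.67 and -1.72). Against LN Treg 3 were higher and 13 lower in each tumor group, with medians of -1.88 in tumor pTreg and -4.06 in tumor tTreg, which pan-T scaling turned to 8 higher and 6 lower in tumor pTreg and 14 higher and 2 lower in tumor tTreg. Izumo1r, the folate receptor 4 gene of Treg cells, averaged 9.99 ± 0.827 CPM in tumor pTreg, 3.31 ± 0.271 in tumor tTreg and 316 ± 12.7 in LN Treg. Gpr83, a receptor gene of Treg cells, averaged 0.610 ± 0.290 CPM in tumor pTreg, 0.360 ± 0.0895 in tumor tTreg and 163 ± 3.04 in LN Treg. Of 12 genes that Foxp3 is known to repress 11 passed the filter on low counts (Il4 did not), and these 11 were higher in tumor pTreg than in tumor tTreg with TMM scaling (median 3.57), against 6 higher and 5 lower with pan-T scaling (median 0.18). Ifng, the Th1 cytokine gene, averaged 103 ± 1.69 CPM in tumor pTreg, against 2.81 ± 0.534 CPM in tumor tTreg and 13.8 ± 1.28 CPM in LN Treg, and its log2 fold change of tumor pTreg over tumor tTreg was 5.19 with TMM scaling and 1.80 with pan-T scaling. Themis, a T cell signalling gene, had 4.90 and 1.51, whereas Ptpn22, a phosphatase gene that restrains T cell receptor signalling, had 2.49 and turned to -0.91. Zap70, a kinase gene of T cell receptor signalling that is also among the pan-T genes, had 3.57 and 0.18. It was the median gene of the repressed list with pan-T scaling and helps set that scale, so this median is not independent of the scaling. Among 9 tested markers of CD8 T, NK and innate lymphoid cells 7 were higher in tumor pTreg than in tumor tTreg (5 higher and 3 lower with pan-T scaling). Cd8a, one of them, averaged 23.6 ± 0.942 CPM in tumor pTreg, against 0.667 ± 0.186 CPM in tumor tTreg and 8.24 ± 1.13 CPM in LN Treg, and their part in the Ifng level was not tested. Against LN Treg 5 of the repressed genes were higher and 6 lower in tumor pTreg (median -0.44), and 1 and 9 in tumor tTreg (median -3.14), while pan-T scaling gave 9 higher and 2 lower in tumor pTreg and 9 higher and none lower in tumor tTreg. Tcf7 stands in both the partner and the repressed list.

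**Figure D5:**
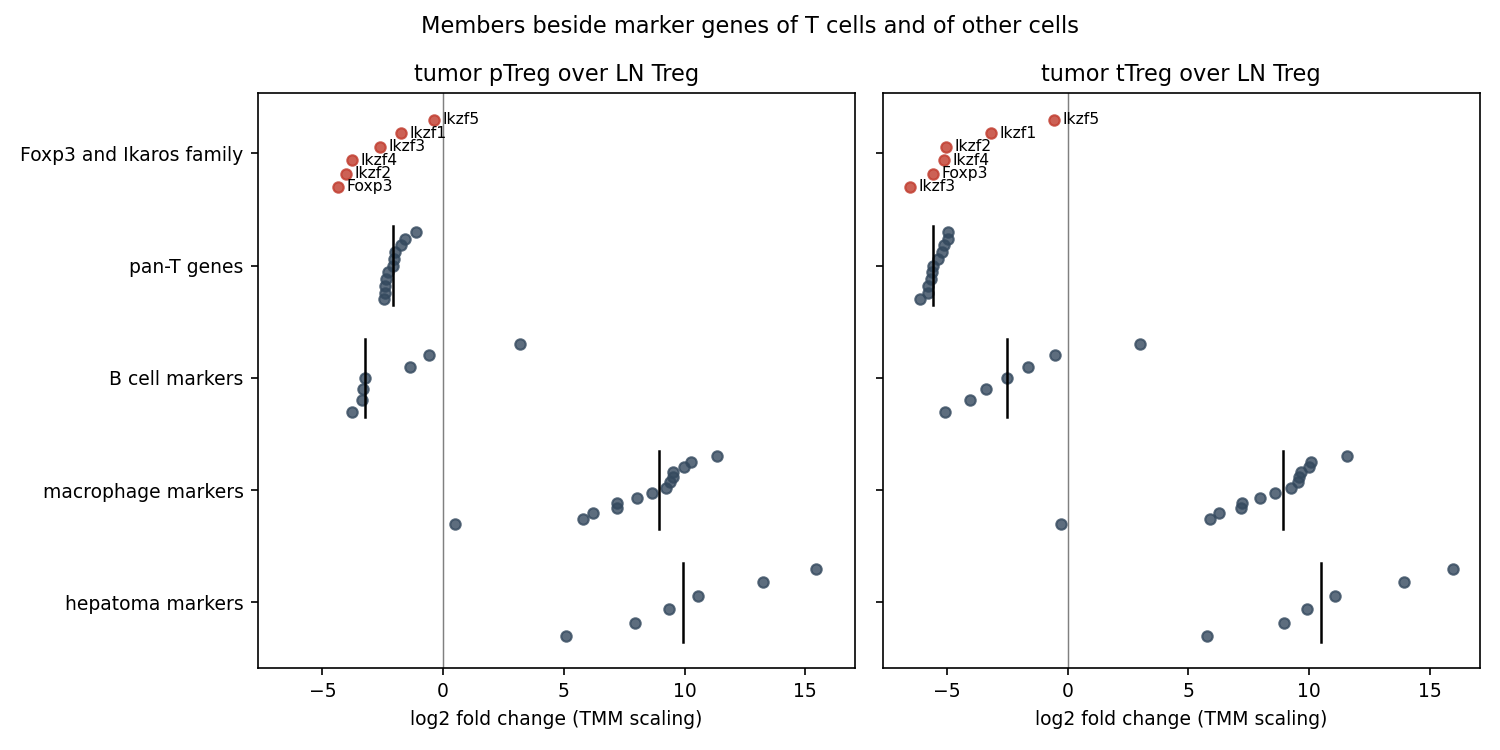
Log2 fold change over LN Treg (TMM scaling) of the members (labelled points) and of marker genes, with list medians as black lines, for tumor pTreg and tumor tTreg. In tumor pTreg Foxp3 (-4.33), Ikzf2 (-4.00), Ikzf4 (-3.75) and Ikzf3 (-2.59) lie below the pan-T median (-2.08), and in tumor tTreg Ikzf3 (-6.53) lies below it (-5.58).

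Genes with a pattern like that of each member were found by the distance between centred group means of log2 CPM, over 3 groups and 10483 genes. For Foxp3 they were Ifit1bl1, Apol9b and Cmah (distances of 0.0812, 0.120 and 0.132), for Ikzf2 Cd55, Armcx2 and Klhdc1 (0.0409, 0.0550 and 0.0658), and for Ikzf4 Lef1, Ifi208 and Armcx2 (0.114, 0.144 and 0.170). Ifit1bl1 averaged 2.53, 0.996 and 52.7 CPM in tumor pTreg, tumor tTreg and LN Treg, and Apol9b 1.90, 0.875 and 45.6. Armcx2 averaged 1.94, 0.908 and 33.4 CPM, and Klhdc1 1.88, 0.908 and 33.3. These genes reached the required mean of 5 CPM only through LN Treg, so their match rests on low tumor values. Ikzf3 was nearest to the lymphocyte genes Cd96, Sh2d1a and Ms4a4b (0.117, 0.190 and 0.273), the first of which averaged 34.3 ± 2.86 CPM in tumor pTreg, 2.38 ± 0.119 in tumor tTreg and 215 ± 9.03 in LN Treg. Ikzf1 was nearest to Gypc, Rac2 and Dclk2 (0.0623, 0.0639 and 0.122). Cd55, Ifi208, Sh2d1a and Gypc also reached a mean of 5 CPM over all libraries only through LN Treg. They averaged 6.16, 5.68, 7.07 and 7.60 CPM in tumor pTreg, and 3.06, 2.28, 0.502 and 2.59 CPM in tumor tTreg. Ikzf5 was nearest to Ptpn6, Sptssa and Pithd1 (0.00195, 0.00278 and 0.00290), the smallest distances of the 6 members. With 3 groups the measure describes the pattern of means and carries no test.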

How the data were processed

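Per the labels, total RNA was sequenced on BGISEQ-500. The submitters' processing notes name STAR 2.7.11a, RSEM 1.3.3 and DESeq2 with GRCm38/mm10; the sources used here name no annotation. The authors deposited expected counts per gene, as whole numbers, and FPKM values. Positions are from GENCODE (GRCm38), promoter windows from RefSeq.

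Of 55413 genes 27279 had a count and 15705 passed edgeR's filterByExpr. Counts of the 12 libraries were tested in 1 fit with edgeR 4.0.16 (R 4.3.3; TMM factors, quasi-likelihood F test), checked on simulated data, with Benjamini-Hochberg adjustment over all genes and a threshold of 0.05. CPM uses library totals. Ratios were compared by two-sided exact permutation tests (SciPy 1.17.1). Alternatives were other scalings and filters, DESeq2 1.42.0, limma 3.58.1, a block for replicate number, and fits that omit single libraries.

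The members and gene lists were chosen with earlier results of these data known, the pan-T and CD3 scalings because of them. Named genes are the members, up to 4 genes per pathway list and comparison with the smallest p, and the 3 genes nearest to each member in pattern (log2 CPM, prior count 2, mean of at least 5 CPM). Chd4, Cd8a and the genes overlapping members were added after their values were seen. Among 19 pairs of libraries within groups, chi-square divided by its degrees of freedom was 1.65 to 3.97, so none repeats another within sampling noise.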

Additional observations from a re-analysis of the deposited data

How the results depend on the processing

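Scaling to T cell transcripts changed most directions; by construction it shifts all genes together. Between the tumor groups 15342 genes were called with pan-T scaling (80 higher, 15262 lower) and 15366 with CD3 scaling (61 higher, 15305 lower), and under either 1 member was higher and 5 lower. With pan-T and CD3 scaling the log2 fold changes of tumor pTreg over tumor tTreg turned to -2.17 and -2.33 for Foxp3, -1.96 and -2.12 for Ikzf1, -2.35 and -2.52 for Ikzf2, -2.03 and -2.20 for Ikzf4, and -3.24 and -3.41 for Ikzf5. For tumor pTreg over LN Treg the calls were 14194 higher and 752 lower (pan-T) and 14354 and 608 (CD3), with 2 members higher under either: Ikzf1 (0.27 and 0.45) and Ikzf5 (1.62 and 1.80). For tumor tTreg over LN Treg they were 15181 and 172 (pan-T) and 15251 and 123 (CD3). Members then split into 4 higher and 2 lower with pan-T scaling and 5 and 1 with CD3 scaling, with Ikzf1 at 2.23 and 2.57, Ikzf2 at 0.37 and 0.71, Ikzf4 at 0.30 and 0.64, Ikzf5 at 4.87 and 5.21, and Foxp3 at 0.20 with CD3 scaling alone. DESeq2's size factors in edgeR gave 3572 genes higher and 4872 lower between the tumor groups (42.3% higher, against 51.4% with TMM).

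Log2 differences of the ratios to Foxp3, taken from CPM, were 2.58 (Ikzf1) and 1.74 (Ikzf3) for tumor pTreg over LN Treg. For tumor tTreg over LN Treg they passed the threshold (adjusted p = 0.0476, exact permutation) at 2.37, 0.51, -0.99, 0.44 and 5.01 for Ikzf1 to Ikzf5. With 1 added to each FPKM they were 2.48, 0.47, 1.81 and 0.72 (Ikzf1 to Ikzf4) for tumor pTreg over LN Treg, and 2.17, 0.74, -0.30, 0.96 and 4.86 for tumor tTreg over LN Treg, at the same adjusted p. In both settings all 5 ratios of tumor tTreg over LN Treg had the smallest p allowed (0.0159, exact permutation). In the main FPKM ratios Ikzf4 overlapped between these groups, and the same p of the other members adjusted to 0.0595. Passing the threshold therefore rested on Ikzf4 alone and adds nothing about the other members. Over CD3 instead of Foxp3 the differences were -2.07 (Ikzf1) and -2.21 (Ikzf4) between the tumor groups, and 0.34, -1.87, -0.37, -1.82 and 1.79 (Ikzf1 to Ikzf5) for tumor pTreg over LN Treg. The cause of these changes was not tested.

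Deviations of same-numbered libraries correlated at -0.05 to 0.06 over 10 pairs, within the -0.12 to 0.18 of 37 pairs with other numbers. No pairing was thus seen, but such correlations cannot exclude it. The sources used here do not say whether same-numbered tumor pTreg and tTreg libraries, whose names share a number, came from the same hosts. With the replicate block 3932 genes were higher and 3563 lower between the tumor groups, and every member call held. With 1 library left out, counts of genes were taken as unchanged within a wide margin of the full count. Genes called lower between the tumor groups, for example, ran from 3327 to 4006, against 3980 with all libraries, and counted as unchanged. Fold changes had to keep their direction and side of the threshold. Ratios had to do the same or, where too few libraries could reach the threshold, keep their direction and move by less than the pooled SD. By these rules 550 values were unchanged and 2 reversed direction. These were the log2 difference of Ikzf4 per Foxp3 between the tumor groups (0.11 with all libraries, not called), which turned to -0.076 without tumor pTreg replicate 1 and to -0.014 without tumor tTreg replicate 3 (range -0.076 to 0.28). It was -0.24 with 1 added to each FPKM. The fitted log2 fold change of Foxp3 was -4.35 to -4.31 for tumor pTreg over LN Treg. Low counts limit Ikzf3 and Ikzf4 in tumor tTreg.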
